A study of Mus musculus with 117 samples.

Results

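The first postnatal week of tagged spinal cord cells, which the study took as astrocytes, was described from 7 of the 117 libraries in the series. Of these, 4 were made at postnatal day 0 (P0) and 3 at day 7 (P7). A further 3 libraries made at day 3 (P3) were used to place the order of the changes. The libraries were taken by a rule on their labels, as RiboTag libraries of uninjured mice of the mGfap line, and the rule used no measured value. Every mouse carried the mGfap-Cre-73.12 transgene and the RiboTag allele, and none was treated. The 4 P0 libraries were labelled male, the P3 libraries 1 male and 2 female, and the P7 libraries 2 male and 1 female, so that no female P0 library enters any comparison. The study examined how astrocytes respond to spinal cord injury, and its age series gave a reference for immature and mature states. In RiboTag mice, Cre places a hemagglutinin tag on a ribosomal protein, and an antibody to the tag then precipitates ribosomes of the tagged cells with the mRNA they carry. The mGfap-Cre transgene is active from before birth and is not induced by a drug, so that a cell carries the tag if it or an ancestor had used the Gfap promoter. The sources used here do not say whether a newborn library came from 1 pup or from several. The p-values measure only the spread between the libraries fitted, which include ages after P7.

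Astrocytes of the spinal cord arise from radial glia around birth, divide locally during the first postnatal days and then leave the cell cycle. During the same period they send processes onto blood vessels and synapses and acquire the transporters that clear glutamate, GABA and potassium. They also acquire the water channels of the endfoot and the enzymes that make cholesterol and lactate for neurons. Levels are given as CPM, counts relative to the library's total scaled by edgeR's TMM method, and libraries are listed in the order of their replicate numbers. A gene was called changed where its false discovery rate (FDR, p adjusted by Benjamini-Hochberg) was under 0.01 in edgeR's quasi-likelihood test, fitted over all 28 RiboTag libraries of the 7 ages. A log2 fold change above 0 means a higher level at the later age.

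Total counts on genes were 69219872 to 112694203 at P0, 78014327 to 98824678 at P3 and 78855616 to 92913020 at P7. Genes with at least 1 count numbered 15354 to 16900 at P0, 16882 to 17669 at P3 and 18008 to 18912 at P7. The P0 libraries varied more among themselves than the later ones, with a median SD over replicates of 0.302 in log2 CPM against 0.139 at P3 and 0.101 at P7, over 9546 genes with a mean of at least 10 CPM. At the older ages this SD was 0.146 at P14, 0.131 at P21, 0.206 at P35 and 0.135 at P63. The fit took 1 spread per gene for all ages, so p-values against P0 do not carry the larger P0 spread in full. Correlations of log2 CPM between libraries of one age were 0.886 to 0.927 at P0, 0.947 to 0.959 at P3 and 0.974 to 0.981 at P7. P0 replicate 3 stood apart, with correlations of 0.886 to 0.903 with the other P0 libraries. Replicates 1 and 4 also lay far from the rest in a principal component analysis of the 10 libraries. Replicate 3 was at −185.8 on the first component, replicate 1 at −150 on the second and replicate 4 at −146 on the third. List medians or counts from P0 to P7 that moved by over 1.5 times without replicate 3 are given with and without it. Gene list counts were not computed without replicate 1 or 4. Labelled sex matched Xist and Ddx3y counts in all 10 libraries.

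Cell type marker lists were read first, to compare the astrocyte label with the data. The 14 astrocyte markers had a mean of 9.58, 9.69, 8.61 and 9.81 log2 CPM in the P0 libraries, 10.29, 9.85 and 9.77 in the P3 libraries and 10.56, 10.53 and 10.56 in the P7 libraries. Every P7 library lay above every P0 and P3 library, and P0 replicate 3 was the lowest of the 10. The 14 markers summed to 9578 to 23225 CPM at P0, 24911 to 32360 CPM at P3 and 42437 to 44682 CPM at P7. In P0 replicate 3 the sum of 9578 CPM lay below the 23409 CPM of the 10 Schwann cell markers. All 14 astrocyte markers had counts at each age, and the libraries also held markers of other cells.

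Schwann cell genes were abundant at all 3 ages. Prx, the periaxin of myelinating Schwann cells and named here after its values were seen, was at 982, 984, 1954 and 978 CPM at P0, 639, 721 and 711 CPM at P3 and 802, 738 and 737 CPM at P7. At P63, where pulldown and flow-through libraries could be compared, the median Prx level was 112 CPM in pulldown and 22.5 CPM in flow-through, the fraction left after the pulldown. The summed level of the 10 Schwann cell markers ranged from 7958 to 23409 CPM at P0, from 12725 to 14343 CPM at P3 and from 17301 to 18792 CPM at P7, with 1 marker higher and 1 lower at P7 and a median log2 fold change of −0.97 (−0.51 without P0 replicate 3), although the P7 sums lay within the P0 range. Markers of pericytes and fibroblasts summed to 4043 to 10232 CPM at P0 and 1991 to 2369 CPM at P7, without overlap, and P0 replicate 3 was the highest. No marker of these 2 lists was at 0 counts in all 10 libraries. Neuron markers summed to 846 to 1141 CPM at P0 and 501 to 851 CPM at P7, endothelial markers to 112 to 249.6 and 92.9 to 100.3 CPM, and microglia markers to 93.9 to 137 and 77.4 to 87.1 CPM. The 7 erythroid markers tested summed to 5.95 to 18 CPM at P0 and 7.66 to 11.5 CPM at P7, with none called. In bulk libraries, fewer cells of a type and less RNA per cell cannot be told apart.

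**Figure D1:**
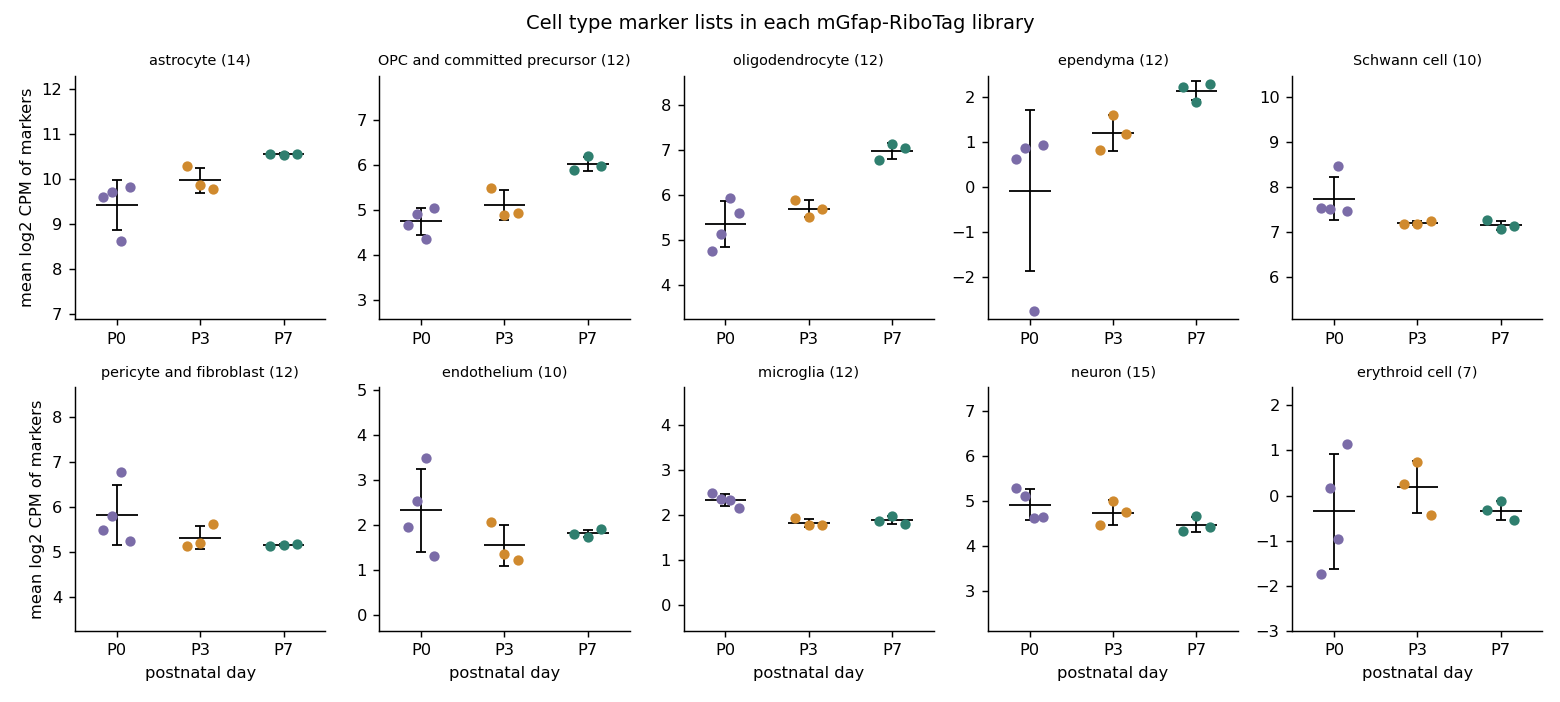
Mean log2 CPM over the markers of 10 cell types in each library (points) by postnatal day, with the mean (line) and SD (bars) of 4 P0, 3 P3 and 3 P7 libraries, the number of markers in parentheses, and the same span on every vertical axis. The astrocyte, OPC and oligodendrocyte lists sit higher at P7 than in every P0 library, while 1 P0 library lies far below the others for ependyma.

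Between P0 and P7, 2258 genes rose and 1361 fell among 18041 tested, so that 20.1% of genes were called, 12.5% of them higher and 7.54% lower as shares of all genes tested. Of the 3619 called genes, 3452 had no overlap between P0 and P7 libraries, a state held by 32.9% of all genes tested. Changes of at least 2-fold numbered 946 upward and 460 downward. The direction of the whole depended on scaling. With TMM the median log2 fold change of all genes was 0.00 and 62.4% of the calls were upward, and with total counts alone the median was −0.25 and 30.2% of the calls were upward (1251 higher and 2898 lower), so that changes are read relative to the median gene. With total counts alone the list medians of the FGF pathway, synapse-organising factors, gap junctions and Hox genes turned from above 0 (0.14, 0.10, 0.02 and 0.05) to −0.10, −0.16, −0.24 and −0.20, that of lipid genes went from 0.25 to −0.00, and the BMP pathway went from 6 higher and 2 lower to 3 higher and 6 lower. On that scale more members of falling lists were called lower, 19 for Mitosis, 20 for DNA replication and 16 for collagens and laminins. Without P0 replicate 3 the FGF, gap junction and BMP medians were 0.03, −0.11 and 0.06, the last in place of 0.26. Those of synapse-organising factors and Hox genes then turned to −0.04 and −0.015. When P0, P3 and P7 libraries were fitted without the older ages, 695 genes were higher and 613 lower, and leaving out P7 replicate 3 or P7 replicate 2 in the full fit gave 1640 higher and 642 lower or 1693 higher and 692 lower. Of the 149 genes named by rule and called in this comparison, 70 passed under each of 23 alternative analyses and none turned direction. The 23 include the main fit at an FDR under 0.05, which every called gene passes by definition. For most named genes that did not pass throughout, either the highest adjusted p over the alternatives is given, as the highest alternative p, or alternatives in which the call was lost. Adjusted p given with such losses cover only the alternatives named there. The highest alternative p of these genes can be larger, and their calls can also be lost in alternatives not named.

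**Figure D2:**
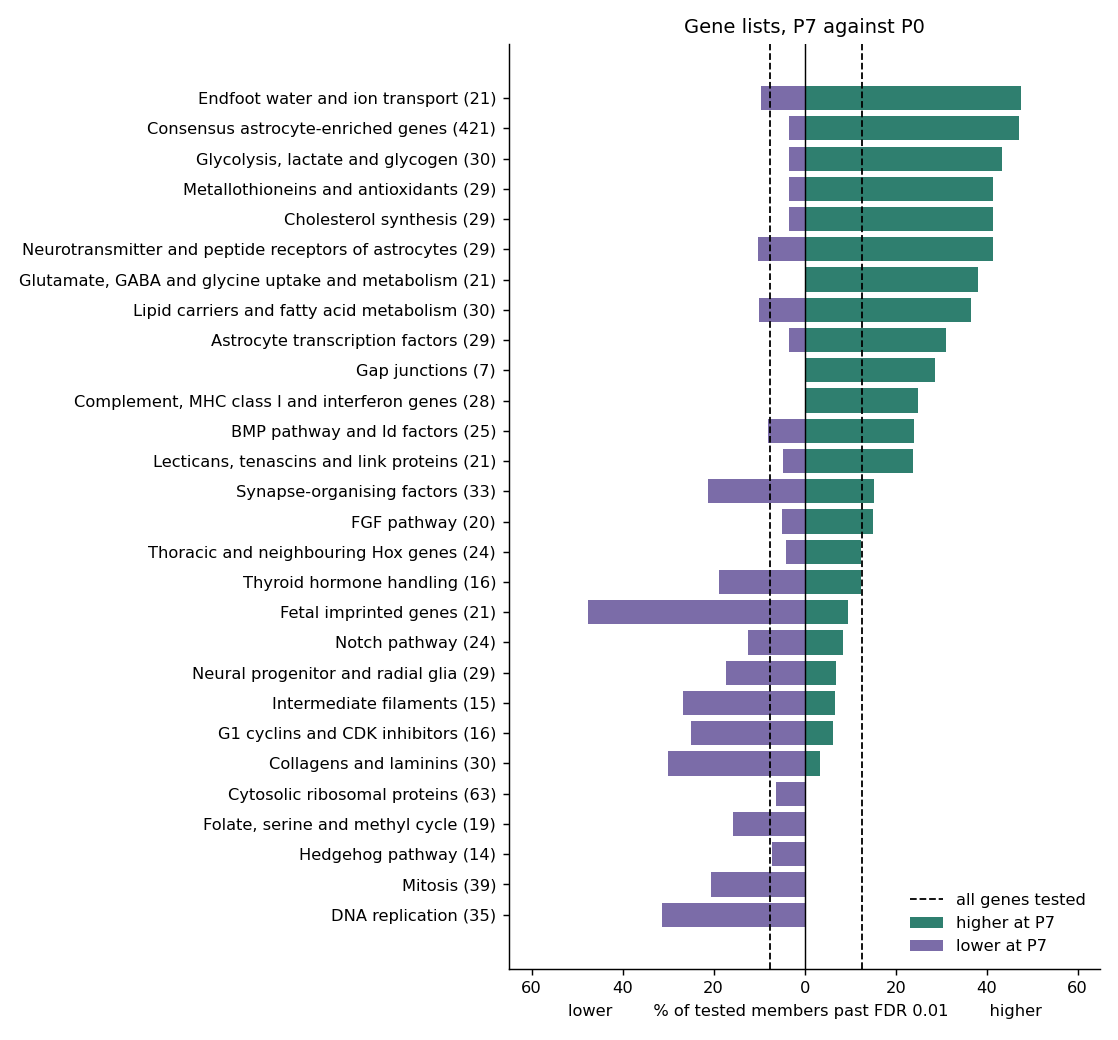
Share of the tested members of each gene list (number in parentheses) past an FDR of 0.01 at P7 against P0, higher to the right and lower to the left. Dashed lines mark the shares among all genes tested, 12.5% higher and 7.54% lower; endfoot transport lies farthest right and fetal imprinted genes farthest left.

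Many genes of the differentiated astrocyte rose over the week, among them those of its intermediate filament and its endfoot. Gfap, the glial filament protein whose promoter drives Cre in these mice, lies on chromosome 11 (GRCm38.p6, 102887336 to 102897200) and was at 2426, 3738, 1884 and 4722 CPM at P0, 8606, 7165 and 8093 CPM at P3 and 16136, 14703 and 15542 CPM at P7. The 3 ages did not overlap, and the log2 fold change from P0 to P7 was 2.28 (SE 0.22, edgeR adjusted p = 2.1e-08). S100b, a calcium-binding protein of astrocytes and some oligodendrocyte lineage cells, was at 48, 121, 137 and 152 CPM at P0, 283, 213 and 159 CPM at P3 and 469.6, 593 and 623 CPM at P7. All P7 libraries were above all others, with a log2 fold change of 2.29 (SE 0.239, edgeR adjusted p = 6.2e-08). Among the 14 astrocyte markers 8 rose and 0 fell, with a median log2 fold change of 0.93, and 2 passed in the first step and 3 in the second.

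A pair of standard astrocyte markers did not follow. Aldh1l1, a folate enzyme used to mark astrocytes at all ages, was at 426, 446, 186 and 450.1 CPM at P0, 573, 439.6 and 395 CPM at P3 and 481, 448 and 496 CPM at P7. Its P0 and P7 ranges overlapped, and its log2 fold change was 0.33 (SE 0.199, edgeR adjusted p = 0.21). Slc1a3, the glutamate transporter GLAST that radial glia also carry, was at 1709.6, 1835, 619.8 and 1628 CPM at P0, 1828, 1498 and 1250.5 CPM at P3 and 1159, 1073 and 1067 CPM at P7. The P7 libraries lay below 3 of the P0 libraries and above P0 replicate 3, with a log2 fold change of −0.40 (SE 0.255, edgeR adjusted p = 0.25). Slc1a3 was called lower in 1 of 23 alternatives.

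Among transporters and enzymes that handle glutamate, GABA and glycine, every member called was higher at P7. Of 21 tested, 8 rose and 0 fell, with a median log2 fold change of 0.63 (0.40 without P0 replicate 3); in the fit of the early ages alone the counts were 3 higher and 0 lower. Slc1a2, the glutamate transporter GLT-1 of maturing astrocytes, was at 1936, 2546, 746 and 2484 CPM at P0, 3924, 2557 and 2612 CPM at P3 and 5509.6, 4965 and 4932 CPM at P7. P7 libraries were all higher than P0 libraries, the log2 fold change was 1.41 (SE 0.257, edgeR adjusted p = 0.00014), and the highest alternative p was 0.015, from the early ages alone. Slc38a1, a glutamine and small amino acid transporter, had a log2 fold change of 1.07 (SE 0.169, edgeR adjusted p = 2.3e-05) and passed throughout. Slc7a10, a transporter of serine and glycine, had a log2 fold change of 1.43 with an edgeR adjusted p of 0.00017, and its highest alternative p was 0.02.

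Endfoot water and ion transport genes had the largest share of rising members among the lists of function, 10 of 21, with 2 lower and a median log2 fold change of 0.61, or 0.36 without P0 replicate 3. Aqp4, the water channel of the endfoot, was at 1691, 2208, 939.6 and 2589 CPM at P0, 3685, 2931 and 3512 CPM at P3 and 5261, 4709.7 and 4440.1 CPM at P7. The order of the ages was kept in every library, and the log2 fold change was 1.37 (SE 0.257, edgeR adjusted p = 0.00019). Mlc1, a membrane protein of perivascular astrocyte junctions, was at 384, 459, 193.9 and 644 CPM at P0 and 1474, 1361 and 1490.5 CPM at P7. Mlc1 had a log2 fold change of 1.78 (SE 0.213, edgeR adjusted p = 5.1e-07). Gpr37l1, an orphan receptor of astrocytes, was at 75.4, 166, 164 and 183 CPM at P0 and 754, 790.3 and 782 CPM at P7. Its P7 libraries were more than 4 times its highest P0 library, and the log2 fold change was 2.40 (SE 0.206, edgeR adjusted p = 3.6e-09). Atp1b2, a sodium pump subunit, had a log2 fold change of 1.43 (SE 0.2, edgeR adjusted p = 5.2e-06), and these 4 genes passed throughout.

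Of the 7 gap junction genes, the 2 called were the main connexins of the astrocyte. Gjb6, connexin 30, was at 41.5, 22.8, 30.8 and 26.3 CPM at P0, 45, 25.9 and 27.3 CPM at P3 and 73.4, 78.5 and 78.7 CPM at P7, with P3 libraries within or just above the P0 range and all P7 libraries above it, and its log2 fold change was 1.34 (SE 0.194, edgeR adjusted p = 7.7e-06). Gja1, connexin 43, had a log2 fold change of 0.91 (SE 0.206, edgeR adjusted p = 0.0013) with a highest alternative p of 0.024. The other 5 genes, Gjb2, Gjc1, Panx1, Panx2 and the junction scaffold Tjp1, were not called, with log2 fold changes of 0.02, −0.19, −0.74, 0.06 and −0.09.

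Receptors for transmitters and peptides were called in both directions, most of them higher. Of 29 tested, 12 rose and 3 fell, and the median log2 fold change was 0.75 (0.49 without P0 replicate 3); in the early ages alone 6 higher and 3 lower. Ntsr2, a neurotensin receptor, was at 20.7, 56.5, 44.3 and 103 CPM at P0, 259.6, 171 and 141 CPM at P3 and 551, 558 and 581 CPM at P7. All 3 ages were apart, and the log2 fold change was 3.33 (SE 0.293, edgeR adjusted p = 8e-09). Adra2a, an alpha-2 adrenergic receptor, was at 62.6, 51.5, 16.3 and 51.7 CPM at P0 and 172, 161 and 179.9 CPM at P7, with P0 replicate 3 far below the other P0 libraries and a log2 fold change of 1.91 (SE 0.233, edgeR adjusted p = 8.5e-07). Gabra2, a GABA-A receptor subunit, had a log2 fold change of 2.24 (SE 0.471, edgeR adjusted p = 0.00088) and a highest alternative p of 0.057. P2ry12, a purine receptor that marks microglia, fell by 1.71 on the log2 scale (edgeR adjusted p = 0.00058, highest alternative p 0.022), beside a microglia list of which 2 of 12 markers fell, Tmem119 among them at −1.80 (edgeR adjusted p = 0.0013, and 0.011 without P7 replicate 3). The part of microglial RNA in the P2ry12 result was not tested.

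**Figure D3:**
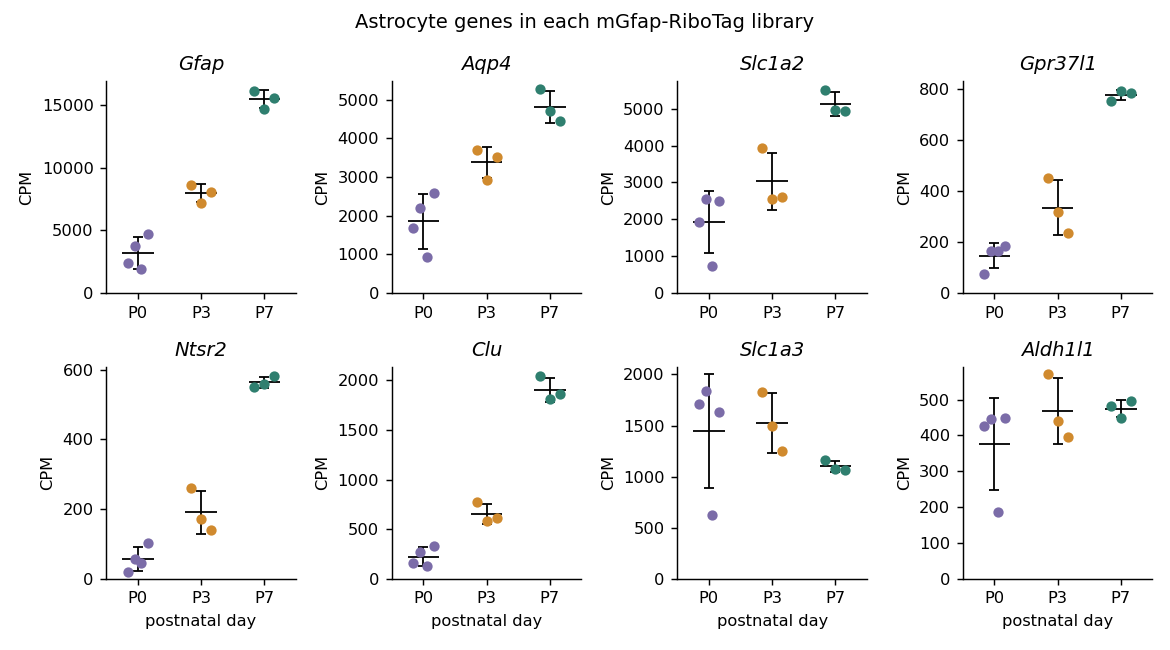
CPM of 8 astrocyte genes in each library (points) by postnatal day, with the mean (line) and SD (bars) of 4 P0, 3 P3 and 3 P7 libraries and axes from 0. Gfap, Aqp4, Slc1a2, Gpr37l1, Ntsr2 and Clu are highest at P7, whereas Slc1a3 and Aldh1l1 overlap between P0 and P7.

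A broader set of consensus astrocyte-enriched genes was examined by the same counts. The study took them from earlier data sets of other sources and checked their enrichment in its own uninjured astrocytes. Of 421 tested, 198 rose and 14 fell, with a median log2 fold change of 0.64 against 0.00 over all genes; in the early ages alone 91 higher and 8 lower. Myoc, the secreted glycoprotein myocilin, was at 1.21, 13.9, 5.01 and 11.3 CPM at P0, 43.9, 29.8 and 38.1 CPM at P3 and 464, 421 and 431 CPM at P7. P3 libraries lay above all P0 libraries and P7 libraries far above P3, and the log2 fold change of 5.80 (SE 0.49, edgeR adjusted p = 8.7e-09) was the largest among genes with a mean of at least 10 CPM at the higher age. Smyd1, a histone methyltransferase known from muscle, was at 0.827, 0.357, 0.0671 and 0.328 CPM at P0, 3.2, 1.55 and 0.436 CPM at P3 and 11.6, 17.9 and 17.6 CPM at P7. Smyd1 had a log2 fold change of 5.26 (SE 0.457, edgeR adjusted p = 1.2e-08). Elf5, an epithelial transcription factor, was at 0, 0.0204, 0.0224 and 0.0143 CPM at P0, 1, 0.488 and 0.519 CPM at P3 and 3.29, 4.01 and 3.41 CPM at P7. Its P0 libraries held no more than 2 counts each, so no fold is given. Ip6k3, an inositol phosphate kinase, was likewise near the limit of counting at P0, with 0 to 12 counts, and at 1.25, 0.794 and 1.21 CPM at P7.

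Among the transcription factors of astrocytes the called members mostly rose. Of 29 tested, 9 rose and 1 fell, with a median log2 fold change of 0.38, and in the early ages alone 2 higher and 1 lower. Without P0 replicate 3 the counts were 8 higher and 3 lower. Hopx, a homeodomain cofactor found in radial glia and astrocytes, was at 347, 405, 168 and 510.1 CPM at P0 and 856, 839 and 904 CPM at P7, without overlap. Hopx had a log2 fold change of 1.28 (SE 0.19, edgeR adjusted p = 1.1e-05). Dbx2, a homeodomain factor of the intermediate spinal cord, and Zbtb20, a zinc finger factor that promotes astrocyte formation, had log2 fold changes of 1.60 and 1.85 (edgeR adjusted p of 2.9e-05 and 0.0049, highest alternative p 0.0103 and 0.28). The Zbtb20 call was lost without P0 replicate 1 or 3 or P7 replicate 1 or 3 (adjusted p of 0.011 to 0.025). Prdm16, a chromatin regulator of neural stem cells, fell by 1.23 on the log2 scale (SE 0.181, edgeR adjusted p = 9.2e-06) and passed throughout. Sox9, the factor that specifies astrocytes, was at 140.4, 154, 32 and 162 CPM at P0, 230.4, 153 and 169 CPM at P3 and 245, 198 and 195 CPM at P7. Its P7 libraries exceeded its P0 libraries, but with P0 replicate 3 far below the rest its log2 fold change of 0.80 (SE 0.302, edgeR adjusted p = 0.044) was not past the threshold.

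Cell cycle genes took another course, and most of the mitotic genes were highest at P3 and lowest at P7. Entry into mitosis is driven by cyclins and kinases whose genes are transcribed together late in the cycle, whereas the replication helicase and its partners are transcribed earlier, at the start of DNA synthesis. Top2a, the topoisomerase that untangles DNA for mitosis, was at 95.8, 85, 68.6 and 84.3 CPM at P0, 134, 131 and 136 CPM at P3 and 46.6, 45.8 and 41.4 CPM at P7. Every P3 library lay above every P0 library, and every P0 library above every P7 library. From P0 to P7 its log2 fold change was −0.90 (SE 0.203, edgeR adjusted p = 0.0012), or an adjusted p of 0.011 without P7 replicate 3. Mki67, which encodes the Ki-67 protein of dividing cells, was at 49.8, 71.1, 60.7 and 68.1 CPM at P0, 77.6, 98.2 and 79.5 CPM at P3 and 36.8, 33.6 and 40 CPM at P7, in the same order and without overlap, but its log2 fold change from P0 to P7 was −0.76 (SE 0.248, edgeR adjusted p = 0.02). Mki67 was called lower in 7 of 23 alternatives, among them the early ages alone (edgeR adjusted p = 0.0046) and limma voom with library weights (adjusted p = 2.6e-05). The 7 include the main fit at an FDR under 0.05, which follows from its adjusted p of 0.02 and adds no evidence.

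A pair of motifs of cell cycle control was searched for, CCAAT (bound by NF-Y) and TTTGAA (the cell cycle genes homology region, CHR). Only promoters of mitotic genes named by rule that hold both motifs are printed, so both being present follows from this choice. Bub1b, Cenpf and Spc25, also named by rule, and the upstream start of Prc1 held CCAAT but no TTTGAA. The 250 bases before the start are from RefSeq on GRCm38.p6, with matches on either strand in capitals: Top2a at chr11:99024190-99024439 (− strand), Mki67 at chr7:135716380-135716629 (− strand), Cdc20 at chr4:118437344-118437593 (− strand), Kif11 at chr19:37376132-37376381 (+ strand) and Prc1 at chr7:80294226-80294475 (+ strand), the last from the downstream of a pair of starts.
Top2a: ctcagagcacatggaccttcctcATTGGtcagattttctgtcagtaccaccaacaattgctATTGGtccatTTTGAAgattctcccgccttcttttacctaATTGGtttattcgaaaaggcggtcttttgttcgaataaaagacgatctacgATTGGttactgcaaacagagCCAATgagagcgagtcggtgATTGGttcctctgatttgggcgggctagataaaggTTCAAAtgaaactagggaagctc
Mki67: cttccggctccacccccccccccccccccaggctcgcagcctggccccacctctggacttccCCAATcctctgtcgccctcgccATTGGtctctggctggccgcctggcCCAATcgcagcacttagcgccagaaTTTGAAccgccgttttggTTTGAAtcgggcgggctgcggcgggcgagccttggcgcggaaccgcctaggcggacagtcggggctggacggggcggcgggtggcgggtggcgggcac
Cdc20: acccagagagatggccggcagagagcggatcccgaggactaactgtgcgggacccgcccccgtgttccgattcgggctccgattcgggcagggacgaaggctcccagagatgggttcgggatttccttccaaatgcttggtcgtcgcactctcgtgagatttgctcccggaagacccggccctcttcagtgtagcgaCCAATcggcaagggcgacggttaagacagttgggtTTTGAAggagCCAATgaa
Kif11: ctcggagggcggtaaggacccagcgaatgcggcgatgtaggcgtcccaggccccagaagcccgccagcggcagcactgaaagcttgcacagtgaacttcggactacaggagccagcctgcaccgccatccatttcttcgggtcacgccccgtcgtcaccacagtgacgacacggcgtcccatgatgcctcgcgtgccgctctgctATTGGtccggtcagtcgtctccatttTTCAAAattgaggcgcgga
Prc1: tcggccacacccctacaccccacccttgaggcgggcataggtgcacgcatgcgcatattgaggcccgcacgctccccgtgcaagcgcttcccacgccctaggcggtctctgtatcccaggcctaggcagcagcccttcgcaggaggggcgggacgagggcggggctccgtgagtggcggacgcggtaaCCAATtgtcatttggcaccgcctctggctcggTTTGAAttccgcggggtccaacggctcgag
In Top2a 6 CCAAT and 2 TTTGAA matches were found, and in Mki67 3 and 2. The 1 TTTGAA match began 18 bases before the start in Cdc20, 19 in Kif11 and 30 in Prc1. Of the 33 Mitosis genes with a promoter in the table, of 39 tested, 69.7% held CCAAT and 33.3% held TTTGAA, against 39.7% and 13.4% of all 13448 tested genes with a promoter. Of the 29 DNA replication genes with a promoter, of 35 tested, 13.8% held TTTCGCGC and 10.3% held TTTGGCGC, 2 forms of the E2F site, against 0.528% and 0.818% of all. Both strands were searched, the motifs do not overlap by their letters, and a match is a description of the window and not a site of binding. Searches of other lists, each for a different motif from those above, found no match. They covered 21 promoters of Cholesterol synthesis, where 0.216% of all genes held the motif. For Astrocyte transcription factors (26 promoters) and Endfoot water and ion transport (12 promoters) 0.0446% of all held it. With motifs this rare, lists of this size cannot show a lower share.

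Of the 39 Mitosis genes, none rose and 8 fell from P0 to P7, with a median log2 fold change of −0.79, and 16 fell in the fit of the early ages alone. In the first step 5 members rose and none fell, with a median of 0.62, against 3.07% of all genes higher and 1.76% lower. In the second step none rose and 19 fell, with a median of −1.45, against 1.97% of all genes higher and 0.765% lower. All 3 P3 libraries were above every P0 and every P7 library for 23 of the 39, a pattern of 1.47% of all genes tested. Kif20a, a kinesin of cytokinesis, was at 19.6, 17.4, 16.2 and 10.7 CPM at P0, 20.9, 21.8 and 20 CPM at P3 and 6.54, 6.75 and 6.12 CPM at P7. Its P7 libraries were below all others, and its log2 fold change of −1.30 (SE 0.276, edgeR adjusted p = 0.00067) passed throughout.

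Kif11, the kinesin that separates the spindle poles, was at 43.7, 29.3, 18.3 and 34 CPM at P0, 41.2, 41.7 and 41.6 CPM at P3 and 15, 12.5 and 14.5 CPM at P7. The log2 fold change from P0 to P7 was −1.16 (SE 0.294, edgeR adjusted p = 0.0034), and the call was lost without P0 replicate 1 or P7 replicate 1, 2 or 3 (adjusted p of 0.012 to 0.023). Cdc20, an activator of the anaphase complex, and Bub1b, a kinase of the spindle checkpoint, had log2 fold changes of −1.07 and −1.04 (edgeR adjusted p of 0.0082 and 0.0097), near the threshold. The call on Cdc20 was lost without P0 replicate 1, P3 replicate 1, 2 or 3 or P7 replicate 1, 2 or 3 (adjusted p of 0.0102 to 0.048), and that on Bub1b without P0 replicate 1 or 4, P3 replicate 1, 2 or 3 or P7 replicate 1, 2 or 3 (adjusted p of 0.013 to 0.04). The highest alternative p were 0.06 for Kif11, 0.065 for Cdc20 and 0.11 for Bub1b.

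Replication genes had the late fall as well, with a first step nearer 0 by its median. Of the 35, none rose and 11 fell from P0 to P7, with a median log2 fold change of −0.64, and 5 fell in the early ages alone. The medians were 0.29 for the first step, with 2 called higher, and −0.99 for the second, with 15 called lower. Mcm6, a subunit of the replication helicase, was at 38.5, 53.1, 49.2 and 71.1 CPM at P0, 63.8, 68.8 and 72.2 CPM at P3 and 30.2, 29.2 and 28.5 CPM at P7. P0 replicate 4 lay within the P3 range, P7 libraries were below all others, and the log2 fold change from P0 to P7 was −0.86 (SE 0.184, edgeR adjusted p = 0.0008), with a highest alternative p of 0.05 in male mice alone. E2f8, a repressor of the E2F family that acts late in the cycle, was at 13.4, 15, 11.1 and 13.4 CPM at P0 and 5.39, 6.29 and 4.27 CPM at P7, without overlap. E2f8 had a log2 fold change of −1.31 (SE 0.312, edgeR adjusted p = 0.0021), a call lost without P7 replicate 1 or 3 (adjusted p of 0.0102 and 0.021). Rfc4, a subunit of the clamp loader, and Mcm5, another helicase subunit, had log2 fold changes of −1.18 and −1.07 (edgeR adjusted p of 0.0014 and 0.0036), and the calls were lost without P7 replicate 3 (adjusted p = 0.015) for Rfc4 and without P0 replicate 4 or P7 replicate 1, 2 or 3 (adjusted p of 0.0103 to 0.026) for Mcm5.

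Whether the steps differed was tested directly, as the difference between the change from P0 to P3 and the change from P3 to P7, where a value above 0 means a more upward first step. In this test 60 genes were above and 8 below 0, 0.333% and 0.0443% of genes tested, and 36 of the 60 had all P3 libraries above every P0 and P7 library. Mitosis and DNA replication members made up 17 of the 60, 10 of 39 and 7 of 35. Prc1, which bundles the microtubules of the central spindle, was at 55.1, 48, 38.5 and 41.4 CPM at P0, 95.4, 88 and 91.5 CPM at P3 and 27.2, 24.8 and 23.3 CPM at P7, and its steps differed by 2.87 (SE 0.393, edgeR adjusted p = 0.00021) on the log2 scale. Spc25, a kinetochore protein, was at 11, 13.4, 17.1 and 12.5 CPM at P0, 26.9, 30.1 and 22.8 CPM at P3 and 9.26, 10.2 and 9.81 CPM at P7, with a difference of 2.43 (SE 0.358, edgeR adjusted p = 0.00034). In both genes the P3 libraries stood above all others. Top2a had a difference of 2.27 (SE 0.346, edgeR adjusted p = 0.00045), and Ckap2, Ccnf and Cenpf, which act on the spindle, in a ubiquitin ligase and at the kinetochore, had differences of 2.33, 2.54 and 2.29. Fhad1, a little-studied forkhead-associated domain gene, had a difference of 2.54 (SE 0.456, edgeR adjusted p = 0.003), from P7 libraries far below both other ages.

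Fitted on the early ages alone, 5 genes passed this test, all above 0: Prc1, Top2a, Nusap1, Ccna2 and Neurl1b, the last 3 of them chosen after their values were seen. Nusap1 is a spindle protein, Ccna2 encodes cyclin A2, and Neurl1b is a ubiquitin ligase linked to Notch ligands. With limma voom and a weight for each library, 150 genes were above and 9 below 0, and in male mice alone, with 1 library at P3, 1 gene was called, below 0. The adjusted p of Prc1 was 0.00075 in the early ages alone and 0.17 in males, and that of Top2a 0.0014 and 0.08.

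On the other side of this test were genes whose second step was the more upward. Extl1, a glycosyltransferase of the exostosin family, was at 1.13, 1.12, 3.12 and 3.52 CPM at P0, 2.17, 1.53 and 1.39 CPM at P3 and 16.2, 23.5 and 15.9 CPM at P7, and its steps differed by −3.85 (SE 0.578, edgeR adjusted p = 0.00045). Map6d1, a microtubule-associated protein, was at 6.35, 7.33, 9.75 and 8.13 CPM at P0, 6.51, 2.78 and 4.92 CPM at P3 and 15.4, 19.9 and 15.5 CPM at P7, with a difference of −2.58 (SE 0.381, edgeR adjusted p = 0.00034). In both the P7 libraries stood above all others, while the P0 and P3 libraries overlapped. Gas6, a ligand of the TAM receptors that promote clearance of debris, was at 39.2, 30.9, 38.5 and 26.4 CPM at P0 and 70.3, 71.6 and 67.6 CPM at P7 and at 32.6, 27.6 and 31.5 CPM at P3, with a difference of −1.34 (SE 0.204, edgeR adjusted p = 0.00045). These genes were not past the threshold in the early ages alone (adjusted p of 0.15, 0.12 and 0.11), nor were Kazn, a desmosome-associated protein, and Brd1, a chromatin reader, whose differences of −0.98 and −0.89 became adjusted p of 0.079 and 0.25.

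**Figure D4:**
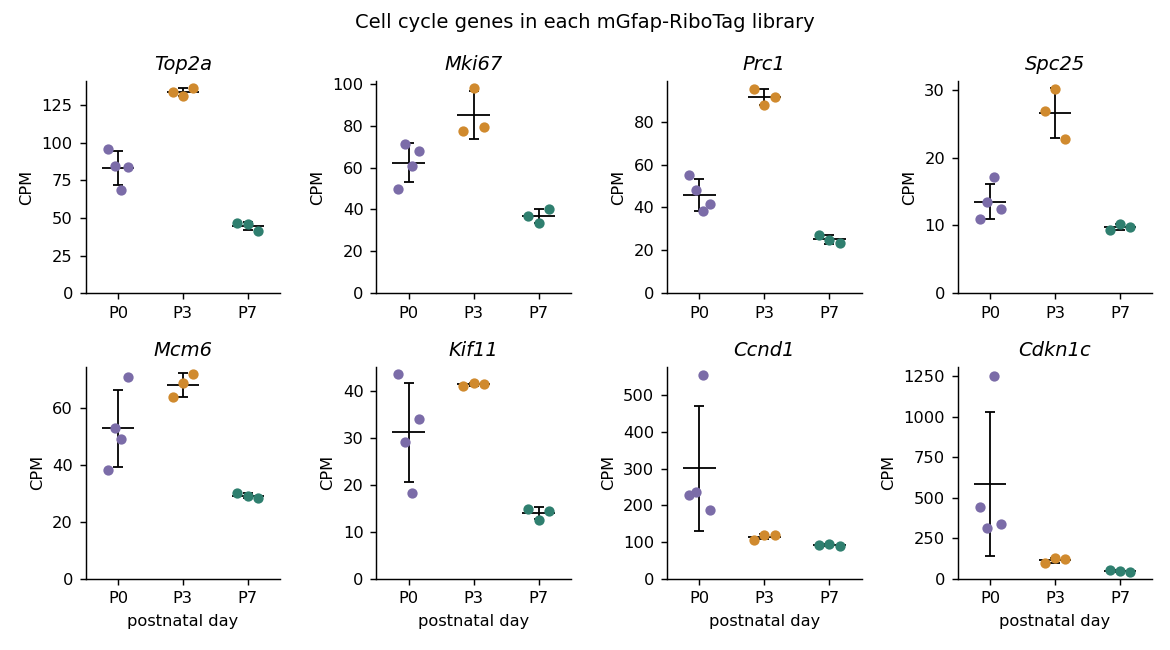
CPM of 8 cell cycle genes in each library (points) by postnatal day, with the mean (line) and SD (bars) of 4 P0, 3 P3 and 3 P7 libraries and axes from 0. Top2a, Mki67, Prc1 and Spc25 are highest in all 3 P3 libraries, whereas Ccnd1 and Cdkn1c are highest at P0, with 1 P0 library far above the others.

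Regulators of the G1 phase were called in both directions. Of 16 cyclins and inhibitors, 1 rose and 4 fell from P0 to P7, and Ccnd1, Ccnd3, Cdkn1a and Cdkn1c, the 4 that fell, also passed in the first step, with log2 fold changes of −1.39, −1.25, −1.29 and −2.34 (edgeR adjusted p of 0.00039, 9.8e-05, 0.0068 and 0.0015). For 2 members, Cdkn2c and Rbl1, named here after their values were seen, every P3 library was above every P0 and P7 library. Cdkn2c, the inhibitor p18, was at 13.4, 9.28, 11.2 and 9.81 CPM at P0, 21.1, 25.6 and 19.8 CPM at P3 and 9.44, 11.3 and 9.77 CPM at P7. It rose in the first step and fell in the second, and its steps differed by 2.15 (SE 0.328, edgeR adjusted p = 0.00045) on the log2 scale, a call not made in the early ages alone. Ccnd1, cyclin D1, which starts the cycle in response to growth factors, was at 228, 236, 554 and 187 CPM at P0, 106, 118 and 119 CPM at P3 and 92, 95.2 and 88.8 CPM at P7. P0 libraries were all above the others, replicate 3 by the most, and the log2 fold change was −1.71 (SE 0.234, edgeR adjusted p = 4.1e-06). Cdkn1c, the inhibitor p57 that is expressed from the maternal allele, was at 443, 314, 1248 and 337 CPM at P0, 98.5, 128 and 119.6 CPM at P3 and 51.6, 47.9 and 42.7 CPM at P7. Cdkn1c had a log2 fold change of −3.63 (SE 0.472, edgeR adjusted p = 3.7e-06). Cdkn1a, the inhibitor p21, had a log2 fold change of −1.47 (SE 0.307, edgeR adjusted p = 0.0007), with a highest alternative p of 0.058. Cdkn2b, the inhibitor p15, went from 0, 1.1, 0.0224 and 0.664 CPM at P0 to 5.78, 4.29 and 4.21 CPM at P7, with P0 replicate 1 at 0 counts and a highest alternative p of 0.084.

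Many of the fetal growth genes fell. Many of these genes are imprinted, meaning that only the copy from one parent is used, and they are known to be shut down after birth in many organs. Of 21 fetal imprinted genes tested, 10 fell and 2 rose, with a median log2 fold change of −1.07, of which −0.26 belonged to the first step and −0.83 to the second. H19, a noncoding RNA of the Igf2 domain, was at 554, 586, 1887 and 614 CPM at P0, 318, 267 and 419.6 CPM at P3 and 101, 72.2 and 95.5 CPM at P7. H19 had a log2 fold change of −3.34 (SE 0.661, edgeR adjusted p = 0.00052). Mest was at 216, 151, 403.3 and 108 CPM at P0, 61.2, 94.2 and 77.4 CPM at P3 and 28.8, 33.7 and 30.9 CPM at P7. Mest had a log2 fold change of −2.82 (SE 0.334, edgeR adjusted p = 6.7e-07). Dlk1, a Delta-like ligand of immature cells, had a log2 fold change of −2.72 (SE 0.263, edgeR adjusted p = 2.4e-08). In each of the 3 genes the P7 libraries were below all others and P0 replicate 3 was the highest library, and in H19 and Mest the P3 libraries were also below every P0 library.

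Igf2, the fetal insulin-like growth factor, was at 264, 321, 1068 and 271 CPM at P0 and 105, 106 and 118 CPM at P7, without overlap. Its log2 fold change was −2.13 (SE 0.606, edgeR adjusted p = 0.0097), and the call was lost without P0 replicate 3, P3 replicate 1, 2 or 3 or P7 replicate 1, 2 or 3 (adjusted p of 0.011 to 0.057). Meningeal and vascular cells also make Igf2, which is among the pericyte and fibroblast markers given above, and their part in its fall was not tested. Among genes of neural progenitors and radial glia, 5 of 29 fell and 2 rose, with a median log2 fold change of −0.15, or −0.25 without P0 replicate 3. The RNA-binding proteins Igf2bp3 and Igf2bp2, which stabilise fetal growth transcripts, had log2 fold changes of −2.19 and −2.18 (edgeR adjusted p of 2e-06 and 1.9e-05).

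Hmga2, a chromatin protein of fetal stem cells, was at 16.7, 13.7, 27.6 and 10.6 CPM at P0, 4.77, 4.95 and 4.43 CPM at P3 and 1.56, 1.73 and 0.873 CPM at P7, and Mycn, the Myc factor of neural progenitors, had a log2 fold change of −2.02 (SE 0.381, edgeR adjusted p = 0.0002). All 4 of these progenitor genes passed throughout, and Hmga2 changed by −3.62 (SE 0.782, edgeR adjusted p = 0.00086). Nes, the intermediate filament nestin of progenitors, was at 90.1, 118, 207 and 120.2 CPM at P0 and 69.8, 72.3 and 67.1 CPM at P7, without overlap, and its log2 fold change of −0.94 (SE 0.335, edgeR adjusted p = 0.034) was not past the threshold. Nes was called lower in 2 of 23 alternatives, which include the main fit at an FDR under 0.05, an outcome set by its adjusted p of 0.034.

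Of 15 intermediate filament genes 4 fell and 1, Gfap, rose, with a median log2 fold change of −0.61. Lmnb1, lamin B1 of the nuclear envelope, was at 112, 112, 102 and 103 CPM at P0, 129, 136 and 142 CPM at P3 and 68.2, 71.3 and 68.6 CPM at P7. It was highest at P3 in every library, like the mitotic genes, and its log2 fold change from P0 to P7 was −0.63 (SE 0.0904, edgeR adjusted p = 7e-06). Lmna, lamin A/C, and Ina, a neuronal filament, had log2 fold changes of −1.06 and −1.39 (edgeR adjusted p of 0.00022 and 0.0012, and 0.013 for Ina without P7 replicate 3). The highest alternative p of Lmna was 0.026. Vim, the vimentin of radial glia and immature astrocytes, was at 933, 826, 1229 and 916 CPM at P0 and 694, 596 and 629 CPM at P7. Its log2 fold change was −0.61 (SE 0.164, edgeR adjusted p = 0.0055), and the call was lost without P0 replicate 3 or P7 replicate 1, 2 or 3 (adjusted p of 0.012 to 0.035). The highest alternative p of Vim was 0.089.

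Collagens and laminins, the proteins of basement membranes and connective tissue, had the lowest median of the lists, at a log2 fold change of −1.24. Of 30 tested, 9 fell and 1 rose, and 23 had no overlap with P7 lower, against 13.4% of all genes; in the early ages alone 19 fell. Col18a1, a basement membrane collagen, was at 316, 167, 357 and 149 CPM at P0, 74.6, 80.7 and 77.2 CPM at P3 and 50.2, 36 and 36.8 CPM at P7. Col18a1 had a log2 fold change of −2.59 (SE 0.55, edgeR adjusted p = 0.00097) and a highest alternative p of 0.025. Nid2, which links laminin to collagen, and Col11a1, a fibril collagen, had log2 fold changes of −2.04 and −1.83 (edgeR adjusted p of 0.0002 and 7e-07), and both passed throughout. Lama4, a laminin chain of vessels and nerves, had a log2 fold change of −2.32 (SE 0.614, edgeR adjusted p = 0.006), a call lost without P0 replicate 1 or 3 or P7 replicate 1, 2 or 3 (adjusted p of 0.012 to 0.037). Over the same libraries 3 of 12 pericyte and fibroblast markers fell, 1 of them without P0 replicate 3, and their summed level was lower without overlap. Their part in the matrix result was not tested.

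Other extracellular genes moved in both directions. Among lecticans, tenascins and link proteins, 5 of 21 rose and 1 fell, with a median log2 fold change of 0.00. In the early ages alone the counts were 1 higher and 1 lower, with total counts alone 3 higher and 3 lower, and without P0 replicate 3 4 higher and 2 lower with a median of −0.21. Cspg5, the proteoglycan neuroglycan C, was at 179.9, 225, 90.4 and 253 CPM at P0 and 390.5, 425 and 476 CPM at P7. Cspg5 had a log2 fold change of 1.20 (SE 0.193, edgeR adjusted p = 3e-05) and a highest alternative p of 0.012. Hapln1 and Hapln2, link proteins of perineuronal and nodal matrix, had log2 fold changes of 2.09 and 4.32 (edgeR adjusted p of 0.0024 and 8.4e-10) at low levels, with P7 libraries at 9.98, 13.1 and 11.2 CPM and 1.7, 2.22 and 2.91 CPM; the highest alternative p were 0.056 and 0.1, and Hapln1 also lost its call without P7 replicate 2 (adjusted p = 0.011). Chsy3, a chondroitin synthase, had a log2 fold change of −1.78 (SE 0.422, edgeR adjusted p = 0.0019), a call lost without P7 replicate 2 or 3 (adjusted p of 0.0103 and 0.016).

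Of 33 factors that organise synapses, 5 rose and 7 fell. Gpc5, a glypican, was at 9.04, 14.8, 8.53 and 29.6 CPM at P0, 45.6, 31.6 and 16.4 CPM at P3 and 70, 79.2 and 89.6 CPM at P7. Gpc5 had a log2 fold change of 2.36 (SE 0.31, edgeR adjusted p = 3.2e-06) and a highest alternative p of 0.011. The thrombospondins, secreted by immature astrocytes to promote excitatory synapses, went the other way. Thbs1 was at 34.6, 26.7, 22.4 and 27.4 CPM at P0 and 12.3, 10.5 and 8.51 CPM at P7 and Thbs2 at 181, 164, 398 and 128 CPM at P0 and 97.2, 81.5 and 97.8 CPM at P7, neither with overlap. Their log2 fold changes were −1.41 and −1.24 (edgeR adjusted p of 0.00036 and 0.00035, highest alternative p 0.018 and 0.041), and fibroblasts and Schwann cells also make them. Ephb2, a receptor of ephrin ligands, had a log2 fold change of −1.20 (SE 0.199, edgeR adjusted p = 4.4e-05) and passed throughout.

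Most of the metabolic genes called were higher at P7. Cholesterol synthesis, in which astrocytes supply neurons, had 12 of 29 genes higher and 1 lower, and its median log2 fold change was −0.06 in the first step and 0.49 in the second. Tm7sf2, a sterol reductase of the pathway, was at 29.4, 60.2, 45.1 and 72.4 CPM at P0, 85.6, 62.6 and 70.5 CPM at P3 and 140.3, 148 and 134 CPM at P7. Tm7sf2 had a log2 fold change of 1.44 (SE 0.196, edgeR adjusted p = 3.3e-06). Hmgcs1, the HMG-CoA synthase of the cytosol, was at 736, 1426, 1032 and 1761 CPM at P0, 1593, 1314 and 1298 CPM at P3 and 2582, 2453 and 2675 CPM at P7. Its P3 libraries lay within the P0 range and its P7 libraries above both, with a log2 fold change of 1.05 (SE 0.17, edgeR adjusted p = 3.2e-05) and a highest alternative p of 0.014. Insig1 and Dhcr7, a regulator and the last reductase of the pathway, had log2 fold changes of 0.84 and 0.83 (edgeR adjusted p of 0.0013 and 0.00016, highest alternative p 0.029 and 0.027). In the early ages alone the counts of this list were 1 higher and 1 lower, and with total counts alone 5 higher and 2 lower, with a median log2 fold change from P0 to P7 of 0.15 in place of 0.39.

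Lipid carriers and fatty acid genes had 11 of 30 members higher and 3 lower. Clu, the secreted chaperone clusterin, was at 158, 269.1, 131 and 331 CPM at P0, 772, 584 and 612 CPM at P3 and 2041, 1806 and 1866 CPM at P7, without overlap of any ages, and its log2 fold change was 3.10 (SE 0.228, edgeR adjusted p = 3.2e-10). Scd1, which makes monounsaturated fatty acids and is also used for myelin lipids, was at 516, 691, 465 and 857 CPM at P0 and 2260.2, 2159 and 2121 CPM at P7. Scd1 had a log2 fold change of 1.79 (SE 0.188, edgeR adjusted p = 7e-08). Fabp5, a fatty acid carrier, had a log2 fold change of 1.38 (SE 0.184, edgeR adjusted p = 2.2e-06). Of the members called lower, named here after their values were seen, Abca1, a cholesterol exporter, had a log2 fold change of −0.99 (SE 0.206, edgeR adjusted p = 0.00057). Acaa2, a thiolase of mitochondrial fatty acid oxidation, had a log2 fold change of −0.57 (SE 0.101, edgeR adjusted p = 0.0001).

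Among glycolysis, lactate and glycogen genes, 13 of 30 rose and 1 fell, with a median log2 fold change of 0.48; in the early ages alone 8 higher and 1 lower. Pygm, the glycogen phosphorylase that releases glucose from stored glycogen, was at 13.9, 20.8, 11.9 and 32.9 CPM at P0, 59.3, 36.3 and 31.4 CPM at P3 and 144, 175 and 157 CPM at P7. P7 libraries were far above the others, and the log2 fold change was 2.99 (SE 0.244, edgeR adjusted p = 2.1e-09). Slc16a1, the lactate transporter MCT1, and Pdk2, a kinase that restrains pyruvate oxidation, had log2 fold changes of 1.15 and 0.99 (edgeR adjusted p of 1.2e-07 and 3.3e-06). Hk2, a hexokinase of fetal and dividing cells, was the 1 member that fell, at 11.4, 10.9, 11.4 and 9.44 CPM at P0 and 4.23, 4.03 and 3.38 CPM at P7. Hk2 had a log2 fold change of −1.47 (SE 0.249, edgeR adjusted p = 5.9e-05). These 4 genes passed throughout.

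Metallothioneins and antioxidant enzymes had 12 of 29 members higher and 1 lower, with a median log2 fold change of 0.45, and without P0 replicate 3 the counts were 15 higher and 0 lower. Mt3, the metallothionein of the brain, was at 136, 100.0, 49.2 and 155 CPM at P0 and 290.4, 350.4 and 391 CPM at P7. Mt3 had a log2 fold change of 1.64 (SE 0.223, edgeR adjusted p = 3.2e-06). Gpx4, the peroxidase that protects membrane lipids, and Prdx6, a peroxiredoxin, had log2 fold changes of 1.23 and 1.21 (edgeR adjusted p of 2.1e-08 and 4e-08). Of the folate, serine and methyl cycle genes, by contrast, 3 of 19 fell and none rose, with Psat1, an enzyme of serine synthesis, at a log2 fold change of −0.66 (SE 0.108, edgeR adjusted p = 3.5e-05), Ahcy at −0.87 and Mtr at −0.79. Ahcy clears S-adenosylhomocysteine and Mtr is methionine synthase, with edgeR adjusted p of 0.00039 and 0.0038 (highest alternative p 0.013 and 0.1). Mtr lost its call without P0 replicate 2 or P7 replicate 2 or 3 (adjusted p of 0.019 to 0.033).

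From P0 to P7, cytosolic ribosomal proteins had a median close to that of all genes. Of 63 tested, 4 fell, a share below the 7.54% of all genes, and none rose, with a median log2 fold change of −0.14, or 0.04 without P0 replicate 3, where 1 fell, and with total counts alone 18 fell. The 4 that fell, Rpl32, Rps26, Rpl4 and Rpl6, had log2 fold changes of −0.59, −0.57, −0.47 and −0.41, and none of them was called in the early ages alone or with library weights. The calls were lost without P7 replicate 1 or 2 (adjusted p of 0.012 and 0.012) for Rpl32, without P0 replicate 1 or 3, P3 replicate 1, 2 or 3 or P7 replicate 1, 2 or 3 (adjusted p of 0.011 to 0.056) for Rps26, without P0 replicate 3 or P7 replicate 1, 2 or 3 (adjusted p of 0.011 to 0.02) for Rpl4 and without P0 replicate 3 or P7 replicate 1, 2 or 3 (adjusted p of 0.014 to 0.042) for Rpl6. By steps, the list medians were −0.30 from P0 to P3 and 0.13 from P3 to P7. In 9 of the 63 genes all P3 libraries were below every P0 and P7 library, against 0.881% of all genes tested.

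Signalling pathways that pattern glia showed few calls, in both directions. Of 24 Notch genes 2 rose and 3 fell (2 higher and 6 lower without P0 replicate 3), and Hey1, a target repressor of the pathway, was at 84, 78.6, 50.1 and 87.3 CPM at P0 and 126, 131 and 133 CPM at P7. Hey1 had a log2 fold change of 0.79 (SE 0.134, edgeR adjusted p = 5.4e-05). The coactivator Maml1 and the ligand Jag1 had log2 fold changes of −1.27 and −1.11, and Nrarp, a feedback target, of 0.82 (edgeR adjusted p of 5.1e-05, 0.001 and 0.0043, highest alternative p 0.0065, 0.026 and 0.073). In edgeR the calls were lost without P7 replicate 3 (adjusted p = 0.013) for Jag1 and without P7 replicate 2 or 3 (adjusted p of 0.021 and 0.014) for Nrarp. Of 14 Hedgehog genes only Gli1, the target that reports pathway activity, passed, at 13.9, 19.6, 11.8 and 17.7 CPM at P0 and 8.09, 6.63 and 6.87 CPM at P7 and a log2 fold change of −1.13 (SE 0.276, edgeR adjusted p = 0.0025), a call lost without P7 replicate 2 or 3 (adjusted p of 0.018 and 0.016).

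Of 20 genes of the FGF pathway, 3 rose and 1 fell (3 higher and 2 lower without P0 replicate 3). The growth factor Fgf1 was at 53.6, 62.1, 57.2 and 73.2 CPM at P0, 115, 107 and 89.7 CPM at P3 and 143, 157 and 157 CPM at P7, without overlap of the ages, and its log2 fold change was 1.31 (SE 0.111, edgeR adjusted p = 3.2e-09). Its feedback inhibitors divided. Spry2 was at 47.3, 61.2, 36.9 and 57 CPM at P0 and 108, 124 and 126 CPM at P7 and Dusp6, a phosphatase of ERK, at 82.6, 53.7, 85.5 and 48 CPM at P0 and 27.3, 27.8 and 26.5 CPM at P7. Spry2 rose and Dusp6 fell, with log2 fold changes of 1.24 (SE 0.14, edgeR adjusted p = 2.3e-07) and −1.31 (SE 0.144, edgeR adjusted p = 1.4e-07), and both passed throughout. Fgfrl1, a decoy receptor, had a log2 fold change of 0.98 (edgeR adjusted p = 0.00037, highest alternative p 0.04).

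In the BMP pathway, which favours astrocytes over oligodendrocytes, 6 of 25 genes rose and 2 fell. Id3, an inhibitor of differentiation factors and a direct target, was at 181, 212, 145 and 297 CPM at P0, 327, 298 and 330.3 CPM at P3 and 457, 447 and 472 CPM at P7. Id3 had a log2 fold change of 1.14 (SE 0.164, edgeR adjusted p = 7.5e-06). Id4 had a log2 fold change of 0.80 (edgeR adjusted p = 0.00016, highest alternative p 0.015), the receptor Acvr2a of −1.45 and the ligand Bmp6 of 0.83 (edgeR adjusted p of 0.00018 and 0.0095). The Bmp6 call was lost in 15 of the 23 alternatives, among them without P0 replicate 1, 2 or 4, P3 replicate 1 or P7 replicate 1, 2 or 3 (adjusted p of 0.012 to 0.037).

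Thyroid hormone times the maturation of glia, and its handling genes gave 2 rising and 3 falling members of 16. Dio2, the deiodinase that makes the active hormone, was at 25.6, 14.6, 1.52 and 18.2 CPM at P0, 25.3, 19.3 and 12.2 CPM at P3 and 43.4, 50.4 and 45.2 CPM at P7, and Dio3, the deiodinase that destroys it, at 4.3, 2.59, 2.44 and 4.81 CPM at P0 and 0.421, 0.566 and 0.218 CPM at P7. Their log2 fold changes were 1.63 (SE 0.453, edgeR adjusted p = 0.0082) and −3.13 (SE 0.911, edgeR adjusted p = 0.0096). Neither was called in the early ages alone (edgeR adjusted p of 0.081 and 0.015). The Dio2 call was also lost without P0 replicate 2 or 4, P3 replicate 2 or P7 replicate 1, 2 or 3 (adjusted p of 0.0102 to 0.03), and the Dio3 call without P0 replicate 1 or 4, P3 replicate 1 or 3 or P7 replicate 1, 2 or 3 (adjusted p of 0.012 to 0.057). The receptor Thrb had a log2 fold change of 1.52 and its partner Rxrg of −0.65 (edgeR adjusted p of 0.0011 and 0.0012, highest alternative p 0.035 and 0.08), and Rxrg lost its call without P7 replicate 2 (adjusted p = 0.018).

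Hox genes record position along the cord. Of 24 thoracic and neighbouring Hox genes, 3 rose and 1 fell, with a median log2 fold change of 0.05. Hoxb9 was at 82.9, 68.7, 91.5 and 69.9 CPM at P0 and 36.5, 32.6 and 32.6 CPM at P7. Hoxb9 had a log2 fold change of −1.21 (SE 0.212, edgeR adjusted p = 9.1e-05). Hoxc8, Hoxd8 and Hoxc6 had log2 fold changes of 1.24, 1.23 and 1.08 (edgeR adjusted p of 0.00063, 0.00012 and 0.00066, highest alternative p 0.076, 0.024 and 0.025), so the called members went both ways. At P3, all 3 libraries were below every P0 and P7 library for 2 Hox genes, Hoxa10 and Hoxc10, named here after their values were seen. Among all genes tested 0.881% had this pattern. Hoxa10 was at 17.6, 14.9, 2.55 and 11.3 CPM at P0, 1.48, 0.755 and 1.18 CPM at P3 and 10.6, 10.7 and 7.95 CPM at P7. Hoxc10 was at 18.1, 24.3, 5.48 and 5.01 CPM at P0, 0.152, 1.61 and 1.93 CPM at P3 and 16.1, 14.8 and 9.23 CPM at P7. Among P0 libraries, replicate 3 was the lowest for Hoxa10 and replicate 4 for Hoxc10. Hoxa10 had log2 fold changes of −3.35 (SE 0.569, edgeR adjusted p = 0.00049) in the first step and 3.10 (SE 0.578, edgeR adjusted p = 0.0015) in the second. Hoxc10 had −3.41 (SE 0.736, edgeR adjusted p = 0.0041) and 3.43 (SE 0.756, edgeR adjusted p = 0.0066). Between P0 and P7 neither was called, with edgeR adjusted p of 0.75 and 0.99. The part of tissue level along the cord in comparisons with P3 was not tested.

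Of 28 complement, MHC class I and interferon genes, 7 rose and none fell, with a median log2 fold change of 0.42 (0.70 without P0 replicate 3). C3, the central complement component, was at 2.2, 3.17, 0.894 and 6.78 CPM at P0, 14.2, 10.8 and 12.3 CPM at P3 and 26.6, 25.8 and 23 CPM at P7, and C4b, another component that astrocytes make, at 21.3, 30.4, 11.2 and 29.4 CPM at P0 and 93.8, 75.6 and 77.7 CPM at P7. Both rose without overlap, by log2 fold changes of 2.93 (SE 0.359, edgeR adjusted p = 1.2e-06) and 1.83 (SE 0.199, edgeR adjusted p = 1.3e-07). Ifit3, an interferon-induced gene, and Tap2, a peptide transporter for class I molecules, had log2 fold changes of 2.25 and 1.26 (edgeR adjusted p of 0.0012 and 0.0047), and neither was called in the early ages alone (adjusted p of 0.052 and 0.11). The Tap2 call was also lost without P0 replicate 1 or P7 replicate 1, 2 or 3 (adjusted p of 0.011 to 0.024). The highest alternative p were 0.26 for Ifit3 and 0.13 for Tap2.

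Genes of the oligodendrocyte lineage rose in the same libraries. Of 12 markers of precursors and committed precursors, 8 rose and 1 fell, with a median log2 fold change of 1.56, and of 12 oligodendrocyte markers 5 rose, with a median of 0.67 (1.03 without P0 replicate 3), and none fell. C1ql1, a secreted protein of precursors, was at 12.9, 19.3, 23.4 and 37.3 CPM at P0, 69.1, 51.2 and 57.3 CPM at P3 and 116, 139.7 and 138 CPM at P7. C1ql1 had a log2 fold change of 2.50 (SE 0.22, edgeR adjusted p = 5.9e-09). Gpr17, the receptor of committed precursors, was at 26.9, 44.3, 23.4 and 27.4 CPM at P0 and 100, 123 and 86.7 CPM at P7. Gpr17 had a log2 fold change of 1.76 (SE 0.291, edgeR adjusted p = 5.6e-05). Pdgfra, Cspg4 and Bcas1, the 3 members not called, had log2 fold changes of 0.37, −0.24 and 0.05, and their P0 and P7 libraries overlapped. Sox10, the factor of both oligodendrocyte lineage and Schwann cells, was the 1 member that fell, with a log2 fold change of −1.19 (SE 0.208, edgeR adjusted p = 8.6e-05).

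Mobp, a myelin protein, was at 2.21, 11.7, 8.69 and 15.2 CPM at P0, 74.3, 35.9 and 37.3 CPM at P3 and 119, 170.0 and 175 CPM at P7, and Mog, a protein of the outer myelin layer, at 1.02, 1.4, 2.29 and 2.8 CPM at P0, 5.98, 2.78 and 3.66 CPM at P3 and 16.8, 23.2 and 25.8 CPM at P7. The P7 libraries stood above all others, with log2 fold changes of 4.03 (SE 0.4, edgeR adjusted p = 6.6e-08) and 3.54 (SE 0.318, edgeR adjusted p = 1.3e-08). With library weights the adjusted p of Mog was 0.041 and that of Ermn, a cytoskeletal protein of myelin, 0.082, from a log2 fold change of 3.70 (SE 0.491, edgeR adjusted p = 5e-06). The summed level of the 12 oligodendrocyte markers was 4068 to 9220.2 CPM at P0 and 7912 to 9147 CPM at P7, which overlap, with P0 replicate 3 the highest of the P0 libraries. Whether tagged or untagged cells gave this RNA was not tested.

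Ependymal genes, by which ciliated cells of the central canal are known, had 4 of 12 markers higher in the full fit and none in the early ages alone. Foxj1, the factor that switches on motile cilia, was at 25, 38.7, 8.98 and 49.5 CPM at P0 and 71.8, 56.3 and 68.6 CPM at P7. Foxj1 had a log2 fold change of 1.10 (SE 0.285, edgeR adjusted p = 0.0044), a call lost without P0 replicate 1 or P7 replicate 1 or 3 (adjusted p of 0.016 to 0.019). The highest alternative p of Foxj1 was 0.077. The mean score of the list was 0.62, 0.88, −2.76 and 0.94 log2 CPM at P0 and 2.22, 1.89 and 2.30 at P7. P0 replicate 3 alone was far below 0, and the other P0 libraries remained below every P7 library. Dcx, doublecortin of migrating neurons, was the 1 neuron marker called, at 86.9, 65.9, 33.7 and 34.7 CPM at P0 and 13.1, 16 and 10.6 CPM at P7 and a log2 fold change of −2.07 (SE 0.276, edgeR adjusted p = 2.5e-06).

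Some of the largest changes among genes with at least 10 CPM at the higher age were in genes named for size rather than for a list. Igsf1, an immunoglobulin-domain membrane protein, was at 8.68, 23.3, 1.83 and 14.1 CPM at P0, 60.1, 47.5 and 30.3 CPM at P3 and 218, 238 and 234 CPM at P7. Igsf1 had a log2 fold change of 4.26 (SE 0.447, edgeR adjusted p = 1.8e-07). Apln, the vascular peptide apelin, was at 1.49, 3.58, 2.58 and 4.27 CPM at P0, 11.5, 6.52 and 4.47 CPM at P3 and 41.3, 47.5 and 49.5 CPM at P7. Apln had a log2 fold change of 3.95 (SE 0.263, edgeR adjusted p = 7.8e-11). In both, P3 libraries were above the P0 range and P7 libraries above P3. Cpxm2, a carboxypeptidase-like protein, was at 6.56, 14.9, 10.5 and 22.5 CPM at P0 and 189, 199 and 219 CPM at P7, and Cd38, an enzyme that consumes NAD, at 7.56, 7.18, 0.917 and 8.73 CPM at P0 and 83.8, 97.8 and 99.6 CPM at P7, with log2 fold changes of 3.89 and 3.94 (edgeR adjusted p of 7.8e-11 and 3.8e-08). Hsd11b1, which reactivates glucocorticoid, and Thrsp, a regulator of fatty acid synthesis, had log2 fold changes of 3.92 and 3.35 (edgeR adjusted p of 2.2e-09 and 5.4e-09), and these 6 genes passed throughout. Fam178b had a log2 fold change of 3.95, with P0 replicate 1 at 0 counts, a call lost without P0 replicate 2 or 3 or P7 replicate 1, 2 or 3 (adjusted p of 0.011 to 0.016). The highest alternative p of Fam178b was 0.22.

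On the falling side, Alox12, a lipoxygenase, was at 24.7, 29.9, 81.6 and 19.4 CPM at P0, 8.45, 5.67 and 10.9 CPM at P3 and 2.8, 2.12 and 1.13 CPM at P7. Alox12 had a log2 fold change of −4.26 (SE 0.568, edgeR adjusted p = 2.8e-06). Prss56, a serine protease known from glia and from boundary cap cells of nerve roots, was at 32.6, 27.7, 92.2 and 33.9 CPM at P0, 17.8, 17.1 and 25 CPM at P3 and 3.23, 2.76 and 1.49 CPM at P7. Prss56 had a log2 fold change of −4.22 (SE 0.514, edgeR adjusted p = 7.6e-07). Both fell in order over the 3 ages without overlap, with P0 replicate 3 the highest library. Aldh1a7, an aldehyde dehydrogenase, Tecta, a matrix protein of the inner ear, and Wnk4, a kinase that controls chloride transport, had log2 fold changes of −3.42, −3.23 and −2.86 (edgeR adjusted p of 3.1e-07, 1.1e-05 and 2.2e-06) and passed throughout. Corin, a protease of natriuretic peptides, and Angpt2, a vessel ligand, had log2 fold changes of −4.05 and −3.24 (edgeR adjusted p of 0.00048 and 0.0013). Both lost the call in male mice alone (edgeR adjusted p of 0.0104 and 0.064), and Angpt2 also without P7 replicate 2 (adjusted p = 0.011). Among called genes without overlap and with a mean of at least 10 CPM at P0, the largest fall, of 4.84 on the log2 scale, was that of Zpld1, a membrane protein at 17.2, 3.94, 28.7 and 4.47 CPM at P0 and 0.554, 0.357 and 0.509 CPM at P7, and its call was lost without P0 replicate 3 or P7 replicate 1, 2 or 3 (adjusted p of 0.012 to 0.023).

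The order of the changes could be read for lists by their medians in each step, which share the P3 libraries. From P0 to P3, 553 genes rose and 318 fell, 4.83% of genes tested, and from P3 to P7, 355 rose and 138 fell, 2.73%. For the first step no gene passed among P0, P3 and P7 libraries alone in edgeR, where 2997 genes had an unadjusted p under 0.05, and 123 passed with limma voom and library weights. In the second step 39 genes passed in the early ages alone and 1971 with library weights. With total counts alone the upward share was 50.9% in the first step, in place of 63.5%, and 26.7% in the second, in place of 72.0%.

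By their medians, cholesterol synthesis was near 0 in the first step, whereas glutamate and GABA uptake was higher in the first than the second, at 0.43 against 0.16. Endfoot genes had medians of 0.18 and 0.39, and consensus astrocyte genes of 0.35 and 0.32. Oligodendrocyte markers had medians of −0.11 and 0.98. Apart from the cell cycle lists, only Intermediate filaments, Thoracic and neighbouring Hox genes, Synapse-organising factors, G1 regulators and the consensus genes had any member for which the steps differed by test, with 1 each, so these orders are descriptions of medians.

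**Figure D5:**
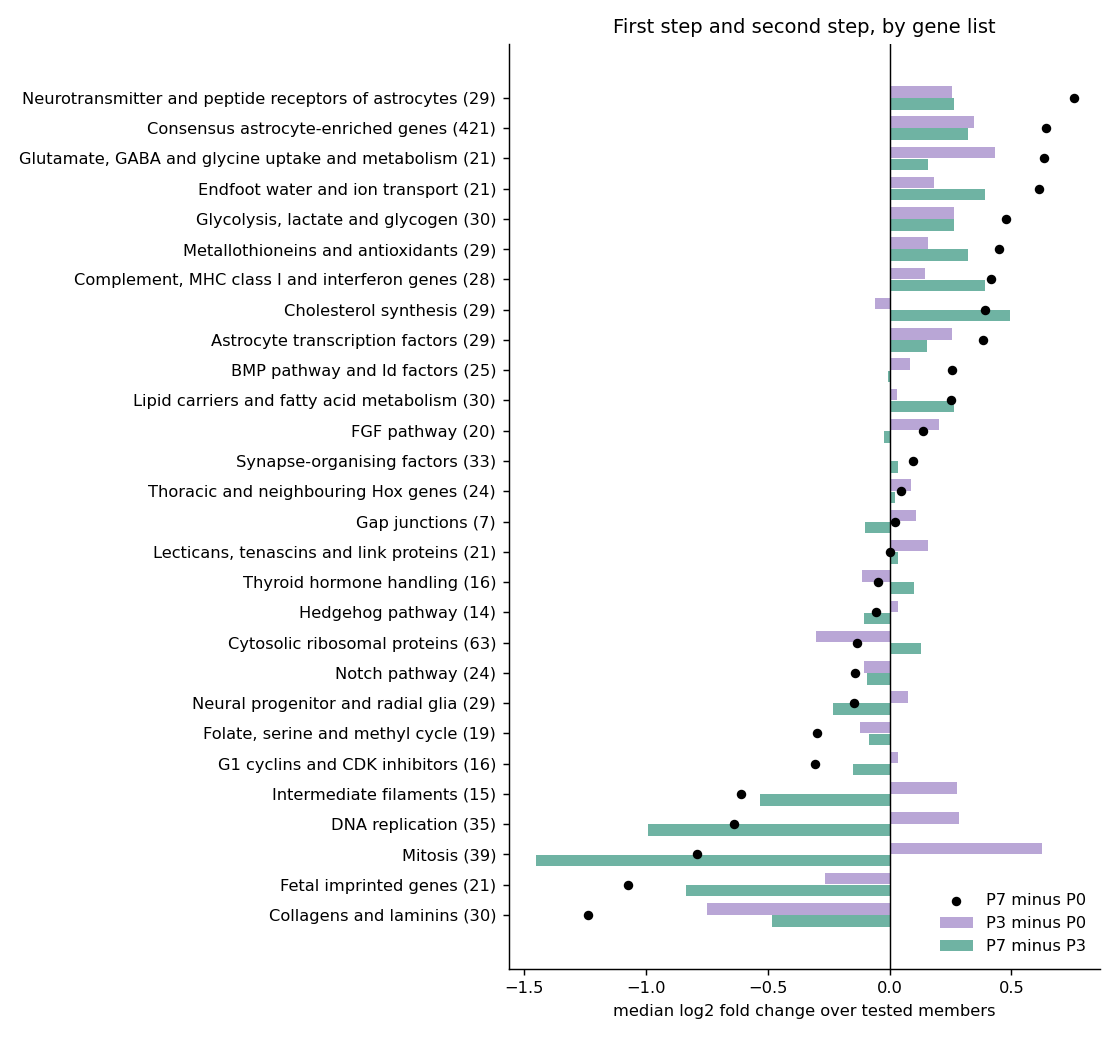
Median log2 fold change over the tested members of each gene list (number in parentheses) from P0 to P3 and from P3 to P7 (bars) and from P0 to P7 (points). Mitosis and DNA replication rise and then fall, cholesterol synthesis has a bar near 0 and then one above it, and collagens and laminins fall in both.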

How the data were processed

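RiboTag RNA of the mGfap line from uninjured mouse spinal cord was sequenced, and the authors deposited raw counts, 1 file per library with 27179 genes. Their pipeline was Trimmomatic for trimming, HISAT2 for alignment (build mm10) and featureCounts for counting, the last 2 at default settings. Strand was not stated to be used in counting, so overlapping and near-identical genes are uncertain. The libraries were taken by label, but this comparison, the gene lists and the named genes were chosen with earlier results of these data known.

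From these counts, edgeR 4.0.16 (R 4.3.3) quasi-likelihood models with TMM scaling and filterByExpr were fitted over 28 RiboTag libraries of 7 ages, leaving 18041 genes, at an FDR under 0.01. SEs are the log2 fold change divided by the root of F. Named genes were the 12 highest and 12 lowest in log2 fold change with a mean of at least 10 CPM and no overlap, up to 4 called members of each list with at least 1 CPM, members not called where 5 or fewer, 10 fixed genes, and the 6 highest and 6 lowest in the test of the steps. Scores are mean log2 CPM with a prior count of 2. Alternatives used DESeq2 1.42.0 and limma 3.58.1, other scalings, filters and samples, the main fit at an FDR under 0.05, and left out each library in turn. Replicate numbers did not pair libraries. A few named genes are not reported here. Procedures were tested on simulated counts with the same spread at every age, so that test does not cover the larger spread at P0. Total counts of 69219872 to 112694203 per library give the depth; counting error is small for genes above 1 CPM.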

Additional observations from a re-analysis of the deposited data

Results flagged for a closer look

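Among 204 P0 values examined, 19 had 1 library farther from the other 3 than Dixon's limit allows. For independent values about 1 in 20 would do so by chance. These values come from the same 4 libraries and partly from shared genes, so that rate is no measure for the 19. The outlying library was replicate 3 in 16 of them and replicate 1 in 3. Of list scores, given as mean log2 CPM, the outlying value was 3.61 for DNA replication, 5.36 for neural progenitor and radial glia genes, 5.97 for glycolysis, lactate and glycogen, 7.15 for cytosolic ribosomal proteins, −2.76 for ependyma and 8.47 for Schwann cell markers. Of single genes, given in log2 CPM, it was 6.53 for Prss56, 10.88 for H19, 10.06 for Igf2, 4.40 for Mcm5 and 8.54 for Bcas1. For astrocyte genes it was 6.24 for Gpr37l1, 8.75 for Gja1, 4.03 for Adra2a, 7.54 for Aldh1l1, 9.28 for Slc1a3 and 5.00 for Sox9, and it was −0.0888 for Cd38 and 0.62 for Thrb. Marker levels of Schwann cells, pericytes and fibroblasts were also highest in P0 replicate 3 and their part in these values was not tested.

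The change from P0 to P3 differed from the change from P3 to P7 in 68 genes by a direct edgeR test of the difference.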

How the results depend on the processing

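The counts of changed genes depended on which libraries entered the fit. With P0, P3 and P7 libraries alone, 1308 genes differed between P7 and P0, 0 between P3 and P0 (2997 at an unadjusted p under 0.05 in edgeR) and 39 between P7 and P3, and 5 differed between steps. The same without P0 replicate 3 gave 2379, 64, 3.0e+02 (128 higher and 175 lower) and 29, and male mice alone 1233, 6, 0 (1913 at an unadjusted p under 0.05) and 1. At an FDR under 0.05 the counts were 5787, 2188, 1197 and 173. With labelled sex as covariate 497 genes differed between P3 and P0. DESeq2 gave 1625, 987 and 230 for P3 against P0, P7 against P3 and the steps, and limma voom with library weights, chosen after seeing the data, 123, 1971 and 159. The newer edgeR fit gave 174 for the steps. Over the 2000 most variable genes the median correlation was 0.0819 within P0, 0.749 within P7 and 0.280 between them, against 0.904, 0.980 and 0.922 over all genes.

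Leaving out 1 library gave 2282 to 4034 genes for P7 against P0, 361 to 1460 for P3 against P0, 151 to 875 for P7 against P3 and 40 to 186 for the steps; the lowest were without P7 replicate 3, P3 replicate 1, P3 replicate 3 and P3 replicate 2, and the highest without P0 replicate 4, P0 replicate 4, P0 replicate 3 and P0 replicate 2. The cause was not tested. Correlations of same-numbered libraries' deviations were −0.107 to 0.135, and 7 of 18 were best with their own number, so the numbers were not taken to pair libraries. With a replicate block 3316 genes differed between P7 and P0 and 44 between steps.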
